A study of Mus musculus with 6 samples.

Results

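CC chemokine genes are described here by the 9 genes Ccl2, Ccl3, Ccl4, Ccl5, Ccl6, Ccl7, Ccl9, Ccl22 and Ccl24, taken by symbol from a table of 55536 mouse genes measured by RNA sequencing of liver. The 3 libraries labelled H-VMP1 KO came from C57BL/6 mice aged 8 to 10 weeks with floxed VMP1 alleles, given the AAV8-TBG-cre virus intravenously. The 3 WT libraries came from mice of the same strain, age and floxed genotype, given the AAV8-TBG-null virus, so WT mice carry the floxed alleles and a virus too. Livers were taken after 2 weeks in both groups. Cre recombinase removes the floxed part of the gene, and the TBG promoter limits Cre to hepatocytes, so the other cells of the liver keep the intact gene. VMP1 sits in the endoplasmic reticulum membrane and acts in autophagy and lipoprotein secretion, and the series title places the comparison in the context of fatty liver with inflammation. Nothing in the labels states that each library is its own animal, so a p-value here covers only the spread among these libraries, which could be technical.

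CC chemokines are small secreted proteins that guide leukocytes by binding G protein-coupled receptors, the Ccr receptors, on the surface of the migrating cell. In liver they are made by Kupffer cells (the resident macrophages), recruited leukocytes, endothelial cells, stellate cells and stressed hepatocytes. Ccl2 and its receptor Ccr2 are best known for bringing blood monocytes into an injured liver.

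The family is named for a pair of cysteines that stand side by side near the start of the mature protein, and these codons are printed because they are the feature that all 9 genes share. The stretch is printed for 8 of them. Each line is a coding stretch from the GENCODE transcripts on GRCm38, written on the gene's own strand, with the adjacent cysteine codons in capitals.
Ccl2, chr11:82036491-82036526, plus strand: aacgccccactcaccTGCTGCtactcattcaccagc
Ccl7, chr11:82046523-82046558, plus strand: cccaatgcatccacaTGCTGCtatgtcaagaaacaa
Ccl5, chr11:83529227-83529262, minus strand: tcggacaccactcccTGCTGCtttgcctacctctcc
Ccl4, chr11:83663467-83663502, plus strand: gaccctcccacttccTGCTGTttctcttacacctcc
Ccl6, chr11:83589371-83589406, minus strand: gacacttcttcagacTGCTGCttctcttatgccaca
Ccl9, chr11:83575911-83575946, minus strand: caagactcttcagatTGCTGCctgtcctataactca
Ccl22, chr8:94746919-94746954, plus strand: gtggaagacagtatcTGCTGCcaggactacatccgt
Ccl24, chr5:135572650-135572685, minus strand: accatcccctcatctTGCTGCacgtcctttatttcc
The stretch lies in exon 3 of Ccl6 and Ccl9 and in exon 2 of the other genes printed. Ccl24 has 2 such pairs of codons, and the later pair is printed. Over whole coding sequences the closest pair was Ccl3 and Ccl4, identical at 67.8% of the longer sequence, followed by Ccl6 and Ccl9 at 66.4%.

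Levels are given as TPM, an abundance corrected for transcript length whose sum is equal in all libraries, so levels of different genes can be compared within a library. TPM keeps no read number, and the depth of the libraries is unknown. Fold changes are differences of log2(TPM + 1) ± SE, labelled H-VMP1 KO minus WT, with 3 libraries a group; the added 1 understates the change of genes that are low. Adjusted p-values are Benjamini-Hochberg values from limma over 12796 genes that had at least 1 TPM in at least 3 libraries. The targeted gene goes against the label: Vmp1 had 157, 136 and 137 TPM in the libraries labelled H-VMP1 KO, against 70.7, 96.5 and 88.6 TPM in WT libraries. Its log2 fold change was 0.75 ± 0.13 in the deposited TPM (limma adjusted p = 3.8e-04) and -0.16 after median-of-ratios scaling, by which the middle gene shows no change. A value for the whole gene also counts exons that Cre leaves in place, so it does not check the deletion, and the labels alone give the directions described here. Most genes were higher in the labelled knockout: at an adjusted p under 0.05, 85.2% of tested genes were called, 74.5% higher and 10.7% lower, with a median log2 fold change of 0.77. Median-of-ratios scaling lowered the fold changes by a median of 0.81, after which 36.2% were called higher and 35.6% lower.

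All 9 CC chemokine genes were higher in every labelled knockout library than in any WT library. Among all tested genes 75.5% were separated in this direction, so separation alone does not set the family apart from the other genes. The sizes of the changes differed widely between members, with log2 fold changes between 1.74 for Ccl9 and 9.60 for Ccl5 among the 8 members that passed the filter. Of these 8, all were called higher in the deposited TPM, beside 74.5% of all tested genes, and all were called higher after median-of-ratios scaling, beside 36.2%. All 8 had log2 fold changes of at least 1, beside 37.3% of tested genes. The median over them was 3.24 on the log2 scale in the deposited TPM and 2.81 after median-of-ratios scaling, beside 0.77 and 0.01 over all tested genes. Ccl2, Ccl3, Ccl4 and Ccl7 were under 1 TPM in every WT library. They could pass the filter only by being higher in the labelled knockout. Ccl5 had 0.50, 1.10 and 0.78 TPM in WT libraries, so it too needed the labelled knockout libraries to pass. These counts and medians are therefore descriptions. Ccl22 did not pass, and with no filter all 9 were called higher, beside 44.3% of 28532 genes called higher and 5.7% lower. In RNA from whole liver, more cells of a type and more RNA per cell cannot be told apart.

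**Figure D1:**
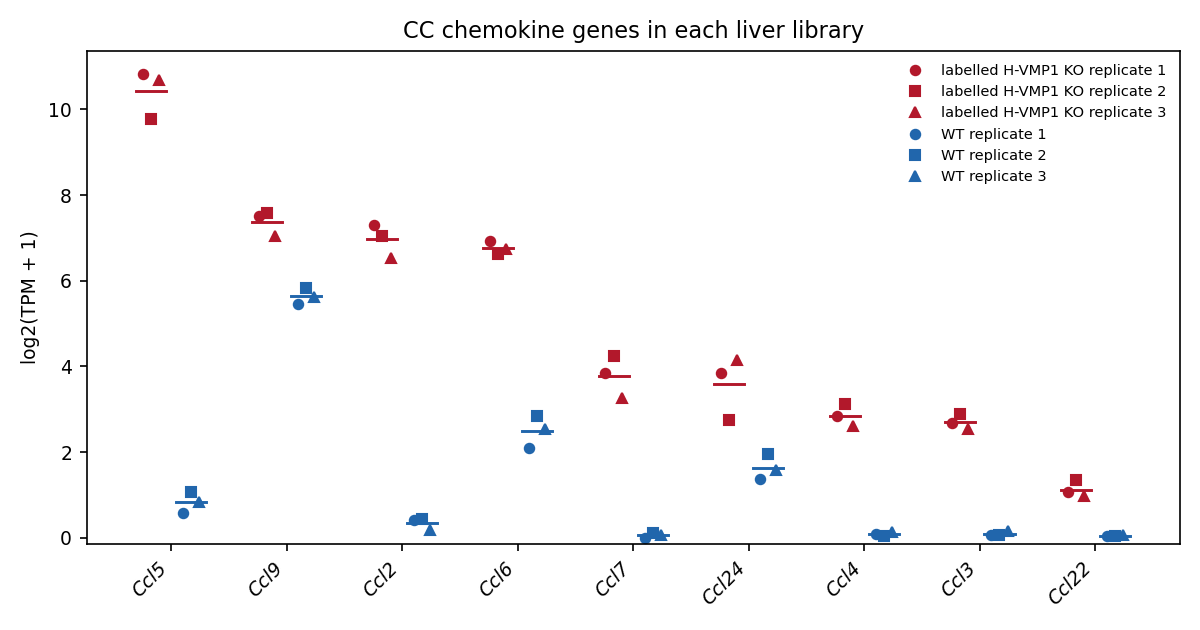
Level of each CC chemokine gene as log2(TPM + 1) in the 3 labelled H-VMP1 KO libraries (red) and the 3 WT libraries (blue), ordered by the mean in the labelled knockout, with lines at the group means of the log values. For every gene the red points lie above the blue points. The gap between the group means is widest for Ccl5 and narrowest, on this scale, for Ccl22.

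The makeup of the family's RNA differed between the groups. The summed TPM of the 9 genes was 2314, 1336 and 2008 in the labelled knockout livers, against 48.7, 66.9 and 56.0 in WT livers. Ccl5 supplied 78.5%, 65.6% and 81.9% of this sum in the labelled knockout livers, against 1.03%, 1.65% and 1.39% in WT livers. Ccl9 supplied 7.89%, 14.3% and 6.49% in the labelled knockout livers, against 88.1%, 84.0% and 85.8% in WT livers. These shares are taken within a library, so a factor applied to a whole library does not move them. Among the 9 genes, Ccl5 was thus the main transcript in the labelled knockout livers and Ccl9 in WT livers.

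**Figure D2:**
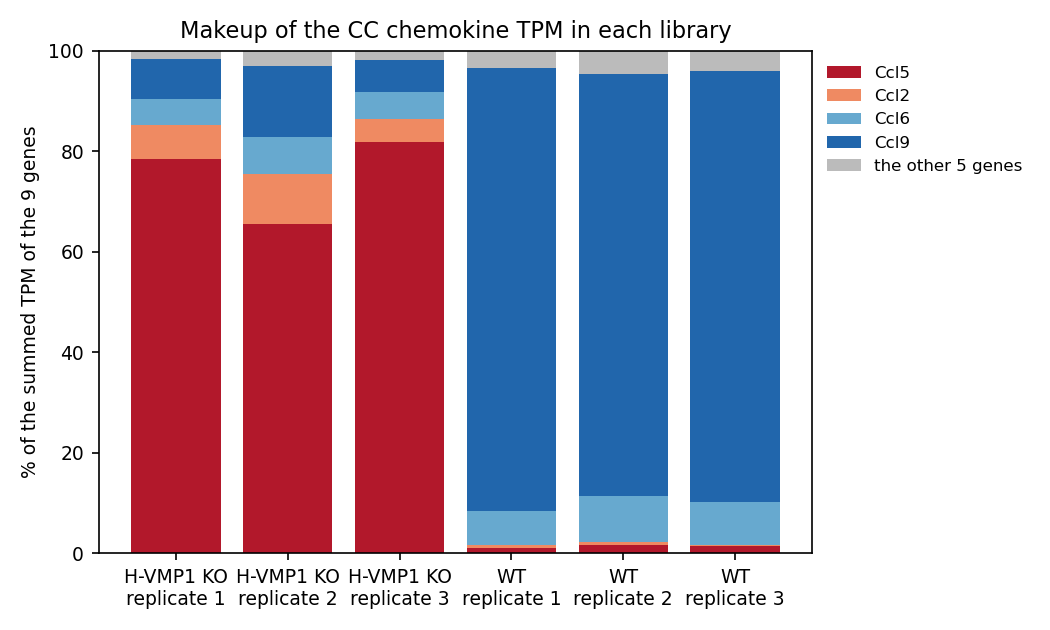
Share of the summed TPM of the 9 CC chemokine genes held by Ccl5, Ccl2, Ccl6, Ccl9 and the other 5 genes, 1 bar per library, labelled H-VMP1 KO at left and WT at right. Ccl5 fills 65.6% to 81.9% of the labelled knockout bars and Ccl9 fills 84.0% to 88.1% of the WT bars.

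By mean level the order in the labelled knockout was Ccl5, Ccl9, Ccl2, Ccl6, Ccl7, Ccl24, Ccl4, Ccl3 and Ccl22. Ccl5 stood clear of Ccl9, Ccl6 of Ccl7, and Ccl3 of Ccl22, while the ranges over libraries overlapped for every other pair of neighbours. In WT livers the order was Ccl9, Ccl6, Ccl24, Ccl5 and Ccl2, each clear of the next, with Ccl2 also clear of Ccl3. Ccl3, Ccl4, Ccl7 and Ccl22 followed with overlapping ranges, all at or under 0.11 TPM.

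Ccl5, also called RANTES, binds Ccr1 and Ccr3 among its receptors and attracts T cells, monocytes and eosinophils. Its gene lies at chr11:83525778-83530518 on the minus strand. Ccl5 had 1816, 876 and 1645 TPM in the labelled knockout livers, against 0.50, 1.10 and 0.78 TPM in WT livers. The ratio of the group means was 1822, and the second labelled knockout library stood well below the other pair. On the log2 scale Ccl5 rose by 9.60 ± 0.29 (limma adjusted p = 4.8e-07), which ranked 2 among all tested genes, 1 being the largest increase, with either scaling. Its mean of 1446 ± 500.3 TPM (SD) placed it 81st among all genes in the labelled knockout, against a place of 11389 in WT livers.

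Ccl2 and Ccl7 are monocyte chemoattractants that signal through Ccr2, and their genes are neighbours on chromosome 11. Ccl2 had 156, 132 and 91.9 TPM in the labelled knockout livers, against 0.34, 0.35 and 0.14 TPM in WT livers. The log2 fold change of Ccl2 was 6.61 ± 0.18 (limma adjusted p = 2.7e-08), which ranked 16 among tested genes in the deposited TPM and 16 after median-of-ratios scaling. Ccl7 had 13.3, 17.9 and 8.61 TPM in the labelled knockout livers, was listed at 0 in the first WT library and had 0.08 and 0.05 TPM in the other WT libraries. Its log2 fold change was 3.72 ± 0.22 (limma adjusted p = 1.3e-06). Both genes were near the lower end of the scale in WT livers, where values are given to 2 decimals, and both were lowest in the last of the labelled knockout libraries.

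Ccl3 and Ccl4 are the macrophage inflammatory proteins alpha and beta, which attract monocytes and T cells, and Ccl3 binds Ccr1. Ccl3 had 5.37, 6.46 and 4.85 TPM in the labelled knockout livers, against 0.05, 0.05 and 0.11 TPM in WT livers. Ccl4 had 6.11, 7.66 and 5.05 TPM in the labelled knockout livers, against 0.06, 0.03 and 0.10 TPM in WT livers. The libraries kept the same order for both genes in the labelled knockout, with the second library highest and the third lowest. The log2 fold change was 2.61 ± 0.12 for Ccl3 (limma adjusted p = 8.1e-08) and 2.76 ± 0.14 for Ccl4 (limma adjusted p = 1.4e-07). With an added value of 0.1 in place of 1, these became 5.07 and 5.29, since the added 1 is large beside the WT levels.

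Ccl6 and Ccl9 are chemokines of rodents that act through Ccr1, and Ccl9 was the member with the highest level in WT livers. Ccl9 had 183, 191 and 130.3 TPM in the labelled knockout livers, against 42.9, 56.1 and 48.0 TPM in WT livers. The log2 fold change of Ccl9 was 1.74 ± 0.16 in the deposited TPM (limma adjusted p = 7.6e-06) and 0.84 ± 0.17 after median-of-ratios scaling (limma adjusted p = 0.0028), the smallest among the 8 tested members on either scale. Ccl6 had 119.99, 97.9 and 105.4 TPM in the labelled knockout livers, against 3.26, 6.22 and 4.76 TPM in WT livers. On the log2 scale Ccl6 rose by 4.27 ± 0.18 (limma adjusted p = 1.9e-07). These genes lie next to each other in the same orientation, and Ccl6 changed more than its neighbour. The TPM of Ccl6 divided by that of Ccl9 was 0.657, 0.514 and 0.809 in the labelled knockout livers, against 0.0759, 0.111 and 0.0991 in WT livers.

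Ccl24, or eotaxin-2, binds Ccr3 and attracts eosinophils, and Ccl22 binds Ccr4 and attracts T helper and regulatory T cells. Ccl24 had 13.3, 5.76 and 16.7 TPM in the labelled knockout livers, against 1.58, 2.87 and 1.98 TPM in WT livers. Ccl24 rose by 1.95 ± 0.38 on the log2 scale (limma adjusted p = 0.0036), with the largest SE among the tested members. The second labelled knockout library lay closest to WT. Without that library the log2 fold change was 2.36, and with median-of-ratios scaling it was 1.21 (limma adjusted p = 0.015). Ccl22 had 1.08, 1.54 and 0.95 TPM in the labelled knockout livers, against 0.02, 0.03 and 0.04 TPM in WT livers. Its log2 fold change, fitted with no filter on low values, was 1.08 ± 0.11 (limma adjusted p = 2.5e-04).

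**Figure D3:**
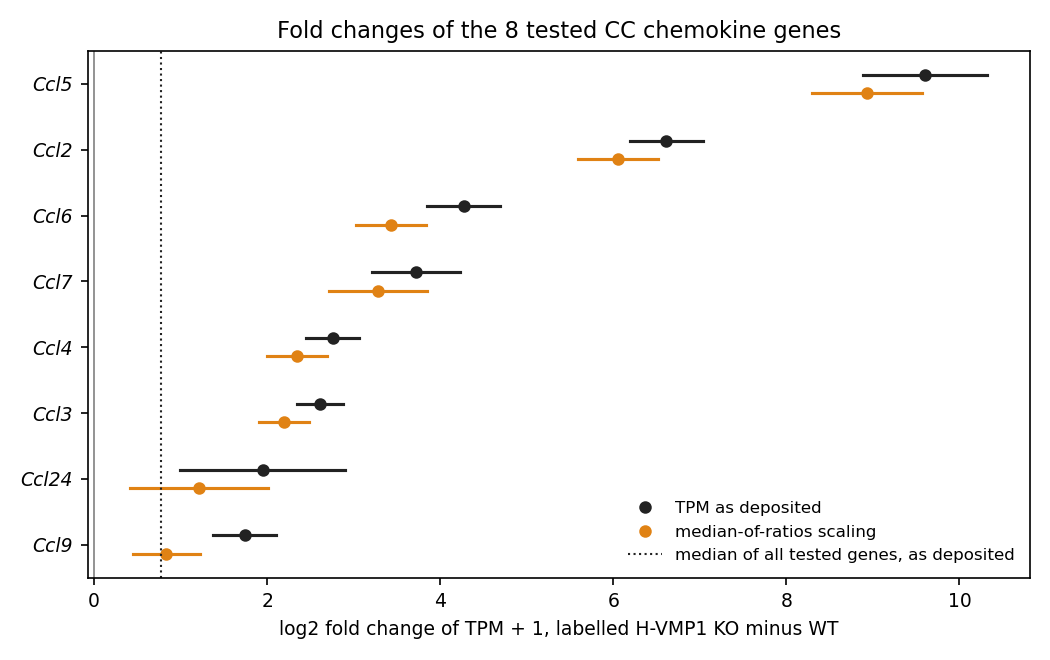
Log2 fold change of TPM + 1 with 95% confidence interval, labelled H-VMP1 KO minus WT, for the 8 tested CC chemokine genes, as deposited (black) and with median-of-ratios scaling (orange); the dotted line marks the median of all tested genes as deposited, 0.77. All intervals lie above 0, with the largest value for Ccl5 (9.60 as deposited) and the smallest for Ccl9 (1.74), and the orange points lie to the left of the black points.

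Most other CC ligand genes were low in both groups. The list of other ligands held 15 symbols on 19 rows of the table, of which 5 rows passed the filter, 2 were called higher and 1 lower. With no filter, 6 of 16 rows with any value above 0 were called higher and 1 lower, shares close to the 44.3% and 5.7% of all genes. Ccl19, a ligand of Ccr7 that guides dendritic and T cells, had 3.21, 3.41 and 1.98 TPM in the labelled knockout livers, against 0.46, 0.67 and 0.43 TPM in WT livers (log2 fold change 1.33 ± 0.16, limma adjusted p = 3.0e-05). The symbol Ccl19 stands on more than 1 row, and near-identical copies could split its reads, so this value is uncertain. Ccl25, a ligand of Ccr9, had 8.55, 7.95 and 8.04 TPM in the labelled knockout livers, against 5.83, 5.50 and 4.76 TPM in WT livers. It was higher by 0.53 on the log2 scale in the deposited TPM (limma adjusted p = 8.6e-04) and came to -0.27 after median-of-ratios scaling, so its direction depends on the scaling. Ccl27a, a skin-homing chemokine, fell by 0.27 on the log2 scale, with 9.44, 10.2 and 9.09 TPM in the labelled knockout livers against 11.99, 12.2 and 11.1 TPM in WT livers. The call for Ccl27a (limma adjusted p = 0.023) was lost without WT replicate 1 (0.06), without labelled knockout replicate 1 (0.066) or 3 (0.0995), and with a replicate block (0.055). After scaling by median-of-ratios it fell by 1.11 (limma adjusted p = 2.0e-05), and after quantile normalization by 1.07 (2.1e-05).

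The members on chromosome 11 lie in a pair of groups, and the other ligand genes beside them were low. Ccl2 (chr11:82035571-82037453) and Ccl7 (chr11:82045712-82047525) are followed by Ccl11, Ccl12, Ccl8 and Ccl1. Ccl12, also a Ccr2 ligand, had 0.52, 0.54 and 0.46 TPM in the labelled knockout livers, against 0.08, 0.04 and 0 TPM in WT livers. Ccl8 had 0.24, 0.13 and 0.17 TPM in the labelled knockout livers and was listed at 0 in all 3 WT livers. Ccl11 and Ccl1 were at or under 0.17 TPM in all 6 livers. The other group holds Ccl5, Ccl9 (chr11:83572919-83578636), Ccl6 (chr11:83587882-83593087), Ccl3 (chr11:83647844-83649355) and Ccl4 (chr11:83662584-83664683), all of them higher in the labelled knockout. On chromosome 8, Ccl17, the other Ccr4 ligand, lies near Ccl22 and had 0.35, 0.13 and 0.37 TPM in the labelled knockout livers, against 0, 0.17 and 0 TPM in WT livers. On chromosome 5, Ccl26 lies beside Ccl24 and was listed at 0 in all 6 livers. Annotated genes that overlap members were found for Ccl2 (Gm17268, listed at 0 throughout) and Ccl6 (E230016K23Rik, at most 0.08 TPM).

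Promoter sequences of RefSeq (GRCm38.p6, 250 bases before to 50 after the start) were held for 4 of the 9 members, Ccl3, Ccl6, Ccl9 and Ccl22. The neighbours Ccl9 and Ccl6 are printed because they share sequence around their starts while their changes differed. Capitals mark the best local alignment between them, with 58 identical of 74 aligned positions (78.4%).
Ccl9 promoter, chr11:83578587-83578886, minus strand: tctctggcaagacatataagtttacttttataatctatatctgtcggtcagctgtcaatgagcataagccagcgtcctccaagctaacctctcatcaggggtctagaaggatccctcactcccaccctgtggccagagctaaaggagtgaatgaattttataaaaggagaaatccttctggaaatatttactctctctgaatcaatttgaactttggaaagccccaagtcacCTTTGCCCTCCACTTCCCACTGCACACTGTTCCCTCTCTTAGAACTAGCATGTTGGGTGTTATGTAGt
Ccl6 promoter, chr11:83593038-83593337, minus strand: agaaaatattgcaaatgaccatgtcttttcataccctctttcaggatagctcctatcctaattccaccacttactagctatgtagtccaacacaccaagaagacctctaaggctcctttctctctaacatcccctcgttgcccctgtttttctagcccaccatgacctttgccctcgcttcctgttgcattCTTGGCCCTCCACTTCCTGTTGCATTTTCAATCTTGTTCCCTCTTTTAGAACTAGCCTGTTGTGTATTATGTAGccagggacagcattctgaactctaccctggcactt
Both strands were searched for 4 motifs, and a match is a description of letters, not of a binding site. The Ccl9 promoter held 1 match to the NF-kappaB consensus (printed above as ggaaagcccc, 35 bases before the start, a match when read on the opposite strand), which 8.46% of 32851 promoters hold. It also held 1 match to the AP-1 motif TGANTCA (7.81% of promoters) and 3 to the TATA box TATAAA (13.6% of promoters), a pair of which overlap each other on opposite strands; matches to different motifs did not overlap. The Ccl3, Ccl6 and Ccl22 promoters held 0 matches to these motifs, and 0 of the 4 promoters matched the core of the interferon-stimulated response element (3.44% of promoters).

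Ccr1 and Ccr2, receptors of changed ligands, were higher too, at lower levels than the members named above as their ligands. Means in the labelled knockout were 1.76 TPM for Ccr1 beside 5.56 for Ccl3, and 3.76 for Ccr2 beside 13.3 for Ccl7. Of 11 Ccr genes listed, 3 passed the filter, Ccr1 and Ccr2 among them, and all 3 were called higher; all 3 were under 1 TPM in every WT library, so they could pass only by being higher in the labelled knockout. With no filter 7 of 10 were called higher, beside 44.3% of all genes, and 0 lower. Ccr2, the receptor of Ccl2 and Ccl7, had 3.32, 4.63 and 3.34 TPM in the labelled knockout livers, against 0.15, 0.14 and 0.16 TPM in WT livers (log2 fold change 2.04 ± 0.12, limma adjusted p = 4.6e-07). Ccr1, the receptor of Ccl6 and Ccl9, had 1.46, 2.07 and 1.75 TPM in the labelled knockout livers, against 0.01, 0.05 and 0 TPM in WT livers (log2 fold change 1.43 ± 0.11, limma adjusted p = 1.7e-06). The receptors of Ccl24 and Ccl22 stayed near the lower end of the scale: Ccr3 was at 0.12 to 0.22 TPM and Ccr4 at 0.01 to 0.08 TPM in the labelled knockout livers, against 0.01 to 0.02 TPM for Ccr3 and 0 for Ccr4 in WT livers.

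**Figure D4:**
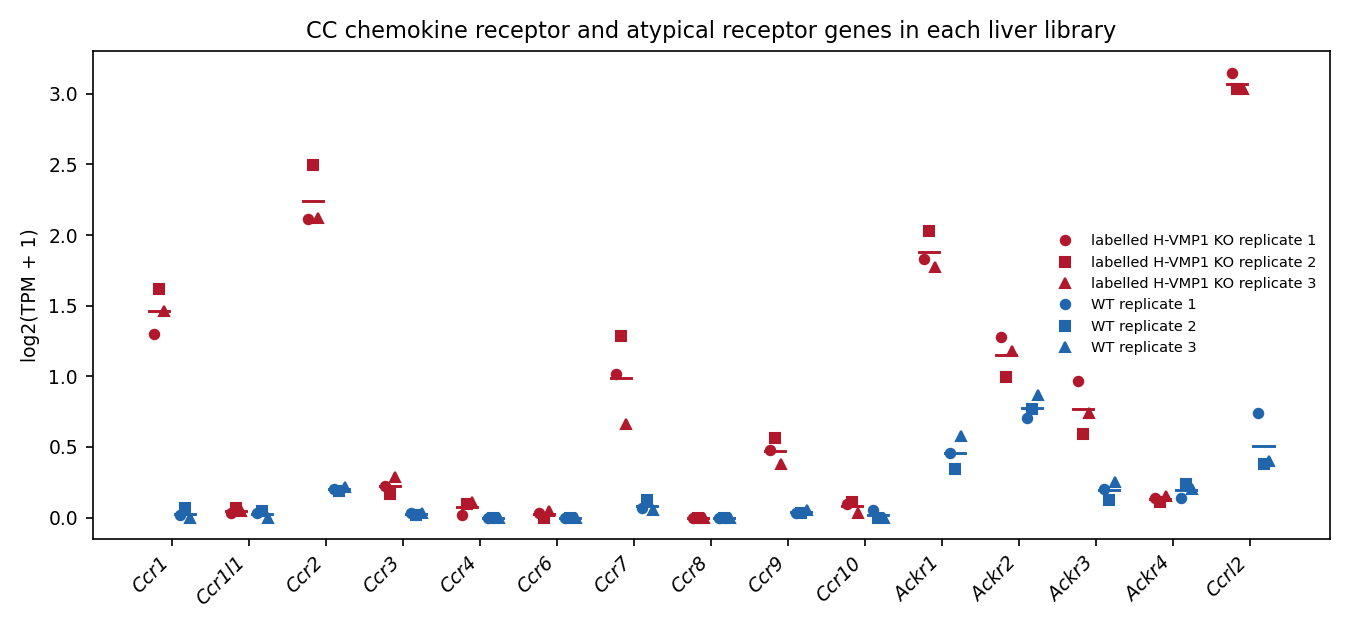
Level of Ccr genes and atypical receptor genes as log2(TPM + 1) in the 3 labelled H-VMP1 KO libraries (red) and the 3 WT libraries (blue), with lines at the group means of the log values. Among the genes plotted, Ccr1, Ccr2, Ackr1 and Ccrl2 show the widest gaps between the groups, and Ccr3, Ccr4, Ccr6, Ccr8 and Ccr10 lie near 0 in both.

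Atypical receptors bind chemokines without driving migration. Of 5 listed, Ccrl2 and Ackr1 passed the filter and were called higher with either scaling, but both were under 1 TPM in every WT library and could pass only by being higher in the labelled knockout. With no filter 4 of 5 were called higher, beside 44.3% of all genes. Ccrl2, an atypical receptor that presents chemerin, had 7.86, 7.18 and 7.20 TPM in the labelled knockout livers, against 0.67, 0.30 and 0.32 TPM in WT livers (log2 fold change 2.57 ± 0.12, limma adjusted p = 1.2e-07). Ackr1, which carries chemokines across endothelium, had 2.56, 3.07 and 2.42 TPM in the labelled knockout livers, against 0.37, 0.27 and 0.49 TPM in WT livers (log2 fold change 1.42 ± 0.11, limma adjusted p = 2.3e-06). Ackr2, a scavenger of CC chemokines, had 1.43, 0.99 and 1.26 TPM in the labelled knockout livers, against 0.63, 0.70 and 0.82 TPM in WT livers, and did not pass the filter. Ackr4, a scavenger of Ccl19 and its relatives, had 0.10, 0.08 and 0.11 TPM in the labelled knockout livers, against 0.10, 0.18 and 0.15 TPM in WT livers, and the groups overlapped.

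NF-kappaB signalling acts upstream of CC chemokines, and its listed genes, targets among them, were higher in the deposited TPM. All 15 listed NF-kappaB subunit, inhibitor and target genes were called higher, beside 74.5% of all genes, and 11 of the 15 were higher and 1 lower with median-of-ratios scaling, beside 36.2% and 35.6%. Their median log2 fold change was 1.66, against 0.77 over all genes. Of the 15, 4 (Rel, Relb, Nfkbie and Tnfaip3) were under 1 TPM in every WT library. These could pass the filter only by being higher in the labelled knockout. With no filter all 15 were called higher, beside 44.3% of all genes. Relb, a subunit of the non-canonical pathway, had 10.9, 8.77 and 7.76 TPM in the labelled knockout livers, against 0.49, 0.66 and 0.48 TPM in WT livers (log2 fold change 2.70 ± 0.13, limma adjusted p = 1.2e-07). The feedback inhibitors Tnip1 and Tnfaip3 rose by 2.83 and 2.67, and the leukocyte adhesion genes Vcam1 and Icam1 rose by 3.44 and 2.48 on the log2 scale. Nfkbia, the inhibitor induced by canonical NF-kappaB, had 53.2, 42.5 and 45.3 TPM in the labelled knockout livers, against 29.9, 37.4 and 33.3 TPM in WT livers. Its log2 fold change was 0.48 (limma adjusted p = 0.0041), and after median-of-ratios scaling it was -0.42.

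Interferon and STAT factors were called at shares near those of all genes. Of 11 listed, 8 were called higher and 0 lower in the deposited TPM, beside 74.5% and 10.7% of all tested genes. After median-of-ratios scaling 4 were higher and 4 lower, beside 36.2% and 35.6%. Irf8, a factor of myeloid cells, rose by 2.54, Irf7, which amplifies interferon responses, by 2.45 and Irf1 by 1.61 on the log2 scale, and all 3 were also higher with median-of-ratios scaling (1.83, 1.56 and 0.74). Of 9 cytokine genes known to drive or restrain CC chemokines, 4 passed the filter. All 4 were called higher with both scalings, beside 74.5% and 36.2% of all tested genes. Tnf was under 1 TPM in every WT library, and Il1a and Il1b in all but the first. These genes needed the labelled knockout libraries to pass, so the count is a description. With no filter 7 of 8 were called higher, beside 44.3% of all genes. Il1a had 7.38, 7.85 and 6.84 TPM in the labelled knockout livers, against 1.18, 0.88 and 0.77 TPM in WT livers (log2 fold change 2.11 ± 0.11, limma adjusted p = 2.4e-07). Tnf had 1.65, 1.39 and 1.07 TPM in the labelled knockout livers, against 0.04, 0.02 and 0.03 TPM in WT livers. Il1b rose by 1.85 and Tgfb1 by 2.67 on the log2 scale. Ifng was at 0.05 to 0.10 TPM in the labelled knockout livers and at 0 to 0.03 TPM in WT livers, Il4 was at most at 0.04 TPM, and Il13 was listed at 0 in all 6 livers.

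Of 10 genes that sense these cytokines or microbial products, 9 were called higher and 1 lower, beside 74.5% and 10.7% of all tested genes. After median-of-ratios scaling 6 were higher and 2 lower, beside 36.2% and 35.6%. Tlr2 and Tlr4 were under 1 TPM in every WT library, so they could pass the filter only by being higher in the labelled knockout. With no filter 9 of 10 were called higher and 0 lower, beside 44.3% and 5.7% of all genes. Tlr2, a receptor for bacterial lipoproteins, had 21.9, 11.8 and 13.4 TPM in the labelled knockout livers, against 0.45, 0.75 and 0.48 TPM in WT livers (log2 fold change 3.38 ± 0.21, limma adjusted p = 1.7e-06). Ifngr1, the ligand-binding chain of the interferon gamma receptor, rose by 2.93 on the log2 scale. Il1r1 was lower, at 8.01, 7.92 and 7.92 TPM in the labelled knockout livers, against 8.31, 17.1 and 20.95 TPM in WT livers. Its call (log2 fold change -0.79, limma adjusted p = 0.049) was lost without WT replicate 2 (0.12) or 3 (0.11) or without any 1 of the labelled knockout libraries (0.12 to 0.13), with no filter (0.068) and with an added value of 5 (0.051). It was -1.62 after scaling by median-of-ratios (limma adjusted p = 0.0034) and -1.58 after quantile normalization (0.0032).

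Of 11 genes for the handling of chemokines outside the cell, 5 were called higher and 3 lower in the deposited TPM, beside 74.5% and 10.7% of all tested genes. After median-of-ratios scaling 1 was higher and 6 lower, beside 36.2% and 35.6%. Dpp4, a peptidase that trims the start of Ccl5 and Ccl22, had 16.6, 14.5 and 16.5 TPM in the labelled knockout livers, against 28.6, 33.0 and 28.4 TPM in WT livers (log2 fold change -0.88 ± 0.11, limma adjusted p = 3.3e-05). The heparan sulfate carrier Sdc3 rose by 2.76 on the log2 scale, while Sdc2, also a heparan sulfate carrier, fell by 0.59.

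The libraries labelled H-VMP1 KO differed among themselves, and the members divided in how. Ccl5, Ccl24 and Ccl6 were lowest in the second library, at 60.6%, 48.3% and 90.9% of the mean of the 3 libraries. Ccl7, Ccl22, Ccl4, Ccl3 and Ccl9 were highest there, at 134.6%, 129.4%, 122%, 116% and 114% of that mean. Ccl2 was highest in the first library and lowest in the third. Over 15714 genes with a mean of at least 0.3 TPM in the labelled knockout, the second library was lowest for 49.7% and highest for 27.0%. With 3 libraries these orders are descriptions, and none was tested.

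Marker genes of liver leukocytes, in which CC chemokines are made or received, also differed between the labelled knockout libraries. Of 7 Kupffer cell markers 6 were lowest in the second labelled knockout library, among them Clec4f at 71.3%, Marco at 61.6% and Cd163 at 32.8% of the mean. All 6 of the 7 neutrophil markers with enough signal were highest in that library, S100a9 at 143.5% and Retnlg at 149.5% of the mean. Of 12 T and NK cell markers 10 were highest there, with Trac, the T cell receptor alpha constant gene, at 154%. Of 10 macrophage and monocyte markers 4 were lowest and 3 highest there, with Ly6c2, a marker of inflammatory monocytes, at 138.6% and Cd68 at 89.1%. Ccr2 was at 123%. The summed TPM of the Kupffer cell markers was 798, 612 and 929 in the labelled knockout livers, against 67.8, 119 and 78.3 in WT livers. Neutrophil markers summed to 46.7, 61.1 and 29.3 TPM in the labelled knockout livers, against 2.26, 3.74 and 2.10 TPM in WT livers. T and NK cell markers summed to 13.99, 21 and 12.3 TPM in the labelled knockout livers, against 2.04, 2.10 and 1.87 TPM in WT livers.

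**Figure D5:**
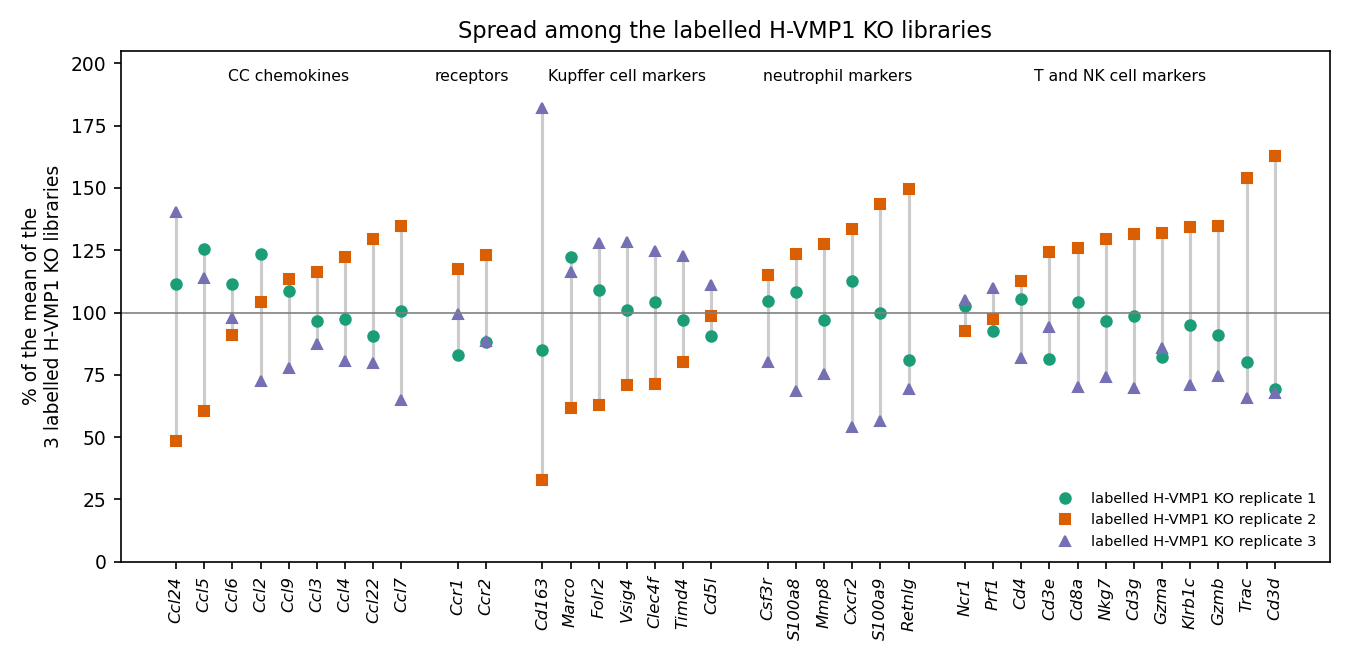
Level of each gene in the 3 labelled H-VMP1 KO libraries as a percentage of their mean, for CC chemokines, the receptors Ccr1 and Ccr2 and markers of Kupffer cells, neutrophils and T and NK cells with a mean of at least 0.3 TPM. The second library (orange squares) is lowest for Ccl5, Ccl24 and most Kupffer cell markers, and highest for Ccl7, Ccl22, Ccl4 and all 6 neutrophil markers shown.

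Most markers of Kupffer cells, macrophages and monocytes, endothelial cells and stellate cells were higher in the labelled knockout. The shares of all tested genes to set beside these counts are 74.5% higher and 10.7% lower in the deposited TPM. After median-of-ratios scaling the shares are 36.2% higher and 35.6% lower. Of 7 Kupffer cell markers 6 were called higher and 1 (Cd163) was not called. Of 10 macrophage and monocyte markers 9 were called higher and 1 lower, with Cd68 up by 4.45 and Ly6c2 by 2.52 on the log2 scale. Both lists had the same counts after median-of-ratios scaling. With quantile normalization 5 of the 7 Kupffer cell markers were called higher, beside 35.3% of all tested genes, and Timd4 was no longer called (limma adjusted p = 0.053). Of the 10 macrophage and monocyte markers, 4 were under 1 TPM in every WT library, Ly6c2 among them. Those 4 could pass the filter only by being higher in the labelled knockout. With no filter 9 of the 10 were called higher and 1 lower, beside 44.3% and 5.7% of all genes. All 7 endothelial and all 7 stellate markers were called higher, while 4 endothelial and 7 stellate markers were higher after median-of-ratios scaling. Of 7 dendritic cell markers 5 passed the filter, all of them under 1 TPM in every WT library, so that they could pass only by being higher in the labelled knockout; Itgax rose by 2.34 on the log2 scale. With no filter, 7 of 7 dendritic cell, 6 of 7 neutrophil, 12 of 12 T and NK cell and 5 of 5 B cell markers were called higher, beside 44.3% of all genes. These counts are for the deposited TPM. With quantile normalization, 3 of 5 tested dendritic cell, 4 of 4 neutrophil and 2 of 3 T and NK cell markers were called higher. Of 2 tested B cell markers 0 were called, beside 35.3% of all tested genes called higher. All of these tested markers needed the labelled knockout libraries to pass the filter. Of 5 eosinophil and mast cell markers, 0 passed the filter. With no filter 1 of 3, Siglecf, was called higher, beside 44.3% of all genes. Siglecf had 0.37, 0.42 and 0.33 TPM in the labelled knockout livers, against 0.01 TPM in each WT liver. Epx and Mcpt4 were listed at 0 in all 6 livers. Krt19 and the other cholangiocyte markers that passed the filter, 4 of 5, were called higher. Of these 4, 3 were under 1 TPM in every WT library, Krt19 among them. Those 3 could pass only by being higher in the labelled knockout. Krt19 was not called with quantile normalization (limma adjusted p = 0.78). With no filter 4 of 5 were called higher, beside 44.3% of all genes. Of 7 hepatocyte markers, 0 were called higher and 5 lower in the deposited TPM, and 7 were lower after median-of-ratios scaling. With quantile normalization 5 were lower, beside 35.4% of all tested genes. Alb, the defining hepatocyte product, was at 10799, 13504 and 10513 TPM in the labelled knockout livers, against 26401, 36575 and 24119 TPM in WT livers. The part of these cell types in the chemokine levels was not tested.

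For each tested member, the closest profiles over the 6 libraries were found among tested genes outside the 9, as the root mean square difference of log2(TPM + 1) after centring each gene on its mean. Ccl2 lay nearest to Mmp12, a macrophage elastase gene, with a difference of 0.178, and then to the CXC chemokine gene Cxcl10 with 0.25. Mmp12 had 179.5, 138 and 98.6 TPM in the labelled knockout livers, against 0.27, 0.05 and 0.13 TPM in WT livers, in the same order of labelled knockout libraries as Ccl2. Ccl24 lay nearest to Folr2, a Kupffer cell marker, with 0.147, and to the ficolin gene Fcna with 0.155. Fcna had 92.3, 43.8 and 93.9 TPM in the labelled knockout livers, against 14.6, 19.5 and 13.9 TPM in WT livers, so that it too was lowest in the second labelled knockout library. Ccl3 lay nearest to Evi2a (0.0587) and Cnn2 (0.0677), and Ccl4 to Anxa1 (0.0383) and Ccdc80 (0.0593). Ccl6 was closest to Klf6 (0.0939) and Tagln2 (0.0948), and Ccl7 to Scd2 (0.157) and Procr (0.17). Ccl9 was closest to Fam49a (0.0936) and Igkv3-12 (0.101). Ccl5 had no near match: Cyp2a4, a steroid hydroxylase gene whose reads are hard to tell from those of its near-identical relative Cyp2a5, was closest with 0.508, followed by Sprr1a with 0.788. The difference between the groups makes up most of each profile, so a short distance says mainly that the fold changes are of like size.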

How the data were processed

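Total RNA of 6 liver samples was sequenced, 1 library each. The authors deposited 1 table in TPM for 55536 genes, in which each library sums to the same total. Per the submitters' processing notes, the tools were RSEM, edgeR and STAR 2.6.1c and the build was mm10, without their roles. The read length and the strand setting were not given in the sources used here, so reads of a gene and its antisense partner may not be separable. Columns were matched to samples by the names in the sample titles, and 0 columns of values were left unused.

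From these values, log2(TPM + 1) was fitted with limma 3.58.1 in R 4.3.3, with an intensity trend, robust variances and no replicate block, for genes with at least 1 TPM in as many libraries as the smaller group holds (3). P-values were adjusted over all tested genes by Benjamini-Hochberg, with a threshold of 0.05. TPM keeps no counts, so no count model, counting interval or detection limit was used. A fall of abundant genes raises all others in TPM, so each result was also computed with median-of-ratios and quantile scaling, after rescaling without the most abundant, mitochondrial or Mup genes, with other added values, filters, variance models and thresholds, with a replicate block, and without each library. Calls shared by both scalings were counted as an alternative chosen after seeing the data.

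The members and lists were chosen with earlier results of these data known. Named genes are the 9 members, Vmp1, genes of the lists on ligands, receptors, signalling and handling, the 2 nearest profiles for each member, and examples from each marker list. Positions are from GENCODE M21 (GRCm38, of which mm10 is the other name), where 55450 identifiers matched. Ratios of group means are given where the WT mean is at least 0.1 TPM. Sequences were aligned with Biopython 1.88, and figures drawn with matplotlib 3.10.9. The fit was tested on simulated data. Values of some genes and 1 sequence stretch are not reported here, and list counts include those genes.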

Additional observations from a re-analysis of the deposited data

How the results depend on the processing

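Each of the 9 members kept its direction and its call under every alternative available for it. These were 140 comparisons, among them the stricter threshold of 0.01 applied to the main fit. The log2 fold change ranged over these from 7.90 to 10.6 for Ccl5, 4.61 to 8.42 for Ccl2, 3.43 to 4.52 for Ccl6, 1.82 to 6.52 for Ccl7, 1.15 to 5.29 for Ccl4, 1.06 to 5.07 for Ccl3, 0.84 to 1.91 for Ccl9 and 1.11 to 2.36 for Ccl24. The ends of the range came from the added value (5 or 0.1) for Ccl2, Ccl3, Ccl4, Ccl5 and Ccl7. The highest limma adjusted p of any member was 0.03, for Ccl24 with a replicate block. Ccl22 was not tested in the main fit, so its base was the fit with no filter. It could also be fitted in 4 fits that left out a library, and its values ranged from 1.07 to 1.16. Over all genes, 9537 were called higher and 1369 lower as deposited. These counts were 4634 and 4552 with median-of-ratios scaling, 4520 and 4534 with quantile normalization, and 4634 genes were higher under both the deposited and the median-of-ratios scaling. Of the genes called higher as deposited, 1543 were called lower with median-of-ratios scaling. Among 71 genes followed one by one through the alternatives, signs turned for Vmp1 (-0.16 with median-of-ratios), Ccl25 (-0.27 with median-of-ratios and -0.27 with quantile normalization) and Nfkbia (-0.42 with median-of-ratios and -0.21 with quantile normalization).

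The labels share replicate numbers but do not say that a number marks a pair. Deviations from group means correlated at 0.0762, 0.0397 and -0.115 for numbers 1, 2 and 3. These values lie within the range for libraries of unlike numbers, -0.143 to 0.0984. With 3 libraries a group they cannot tell whether a number marks a pair. With the replicate block 9427 genes were called higher and 1333 lower, and all 8 tested members stayed called. Depth is unknown, and WT values of Ccl3, Ccl4, Ccl7 and Ccl22 are at or under 0.11 TPM, given to 2 decimals.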
